A study of Homo sapiens with 12 samples.

Results

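The 10 genes described here encode the enzymes that modify and cross-link collagen: the prolyl 4-hydroxylase subunits P4HA1, P4HA2, P4HA3 and P4HB, the lysyl hydroxylases PLOD1, PLOD2 and PLOD3, and the lysyl oxidases LOX, LOXL1 and LOXL2. They were taken by name from the list of these enzymes, with no threshold on a measured value, and are 10 of the 57773 gene IDs in the deposited table. RNA was sequenced from HEK293, a line derived from human embryonic kidney and grown in 10% fetal bovine serum, and from the extracellular vesicles (EVs) collected from these cells. All cells had been lipofected for 48 h with the 4EC1 plasmid, spelled out in the design text as eGFP-EIF4E-C-YTHDF1/GBP1-CD9. The 4 groups were hypoxia EVs, normoxia EVs, hypoxia cells and normoxia cells, with 3 libraries each, and hypoxia meant 24 h in a hypoxia chamber. The transfection was transient and no group without the plasmid was used. Whether the libraries of a group came from separate cultures is not stated, and the p-values therefore reflect spread among libraries that may be technical only.

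Collagen chains are hydroxylated in the endoplasmic reticulum before they fold. Prolyl 4-hydroxylase is a tetramer of alpha subunits (P4HA1, P4HA2 or P4HA3), which hold the catalytic site, and beta subunits (P4HB, also known as protein disulfide isomerase), and its product stabilises the triple helix. PLOD enzymes hydroxylate lysines of the chains, and PLOD2 acts on the telopeptides, where hydroxylysine leads to the more stable cross-links. Both families use molecular oxygen, iron and 2-oxoglutarate. Lysyl oxidases act outside the cell, where they oxidise lysine and hydroxylysine side chains to the aldehydes that form cross-links. P4HA1, P4HA2, PLOD2 and LOX are textbook targets of the hypoxia-inducible factors (HIF), which bind a short core motif, ACGTG or GCGTG.

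All 10 are protein-coding, and their places follow GENCODE release 29 on GRCh38. P4HA1 (ENSG00000122884) lies at chr10:73007217-73096974, P4HA2 (ENSG00000072682) at chr5:132191838-132295315, P4HA3 (ENSG00000149380) at chr11:74235801-74311657 and P4HB (ENSG00000185624) at chr17:81843159-81860694, all on the minus strand. PLOD1 (ENSG00000083444) lies at chr1:11934205-11975538 on the plus strand, PLOD2 (ENSG00000152952) at chr3:146069440-146163653 and PLOD3 (ENSG00000106397) at chr7:101205977-101218420 on the minus strand. LOX (ENSG00000113083) lies at chr5:122063195-122078360 on the minus strand and LOXL1 (ENSG00000129038) at chr15:73925989-73952137 on the plus strand. All but PLOD1 and PLOD2 share 1.52 to 9.98% of their exonic bases with a gene on the opposite strand, and LOXL2 shares 2.10% with ENTPD4 on its own strand. The values of the genes that overlap others are uncertain to that extent.

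The promoters of the 3 genes with the largest rise in hypoxia cells, described below, are shown because they differ in how often they hold that core. Each is the 300-base RefSeq window on GRCh38.p14, 250 bases before to 50 after the annotated start, printed 5′ to 3′ on the strand of the gene. Capitals mark ACGTG or GCGTG on the printed strand and CACGT or CACGC where the motif lies on the other strand. P4HA1 lies at chr10:73096817-73097116, PLOD2 at chr3:146161135-146161434 and LOX at chr5:122078210-122078509, all on the minus strand.
P4HA1: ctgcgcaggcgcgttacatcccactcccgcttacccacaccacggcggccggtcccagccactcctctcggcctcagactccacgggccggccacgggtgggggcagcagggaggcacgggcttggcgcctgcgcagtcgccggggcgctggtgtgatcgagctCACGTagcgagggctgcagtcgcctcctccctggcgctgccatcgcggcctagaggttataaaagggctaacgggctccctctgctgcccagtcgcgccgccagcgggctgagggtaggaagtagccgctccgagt
PLOD2: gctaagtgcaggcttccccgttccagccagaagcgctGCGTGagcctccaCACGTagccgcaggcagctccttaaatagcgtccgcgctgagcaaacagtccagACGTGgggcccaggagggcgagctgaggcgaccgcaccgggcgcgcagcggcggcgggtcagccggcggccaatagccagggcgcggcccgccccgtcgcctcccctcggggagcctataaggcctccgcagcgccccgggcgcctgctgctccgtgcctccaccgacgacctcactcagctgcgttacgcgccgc
LOX: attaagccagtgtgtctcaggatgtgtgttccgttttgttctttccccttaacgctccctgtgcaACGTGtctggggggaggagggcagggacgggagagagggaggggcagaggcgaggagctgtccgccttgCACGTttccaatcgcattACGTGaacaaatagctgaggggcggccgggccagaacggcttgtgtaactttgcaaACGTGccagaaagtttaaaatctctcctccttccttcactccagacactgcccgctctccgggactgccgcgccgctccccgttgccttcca
The window of P4HA1 held 1 match, that of PLOD2 held 3 and that of LOX held 4. Of 35116 windows of the same length, 48.4% held at least 1 match, 10.1% at least 3 and 4.40% at least 4. Windows were found for 8 of the 10 genes. P4HB had 1 match and PLOD1 had 2, while P4HA2, PLOD3 and LOXL1 had none. A match is a description of the letters, not a binding site. LOX has 3 windows in the RefSeq table, and the one nearest the start in GENCODE is shown. The whole window lies inside the GENCODE gene, downstream of its outermost start, for P4HA2 (start at 132295315), PLOD1, PLOD2 (146163653), PLOD3 and LOXL1. The absence of a match says only that the letters are not in that window.

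Values are in deposited units, which are reads divided by 1 factor per library. Cell libraries held 18059381 to 23400813 reads and EV libraries 3259453 to 7001767, so EV values of low genes rest on far fewer reads. RNA from EVs also gave signal over genes that the cells barely express. Over the 6599 protein-coding genes that averaged 20 units or less in cells, here called near-silent, the density was 16.9 ± 0.561 units per kb of exon in hypoxia EVs, 7.80 ± 3.52 in normoxia EVs, 1.81 ± 0.139 in hypoxia cells and 1.44 ± 0.120 in normoxia cells (SD, n = 3 each). The 3 normoxia EV libraries spread from 4.79 to 11.7 units per kb. The near-silent genes were chosen by their level in these same cell libraries, so the gap in density between EVs and cells is in part set by that rule. EIF4E, YTHDF1 and CD9, which the plasmid is named for, took 19.97 to 23.2% of the reads of hypoxia EVs, 21.9 to 24.4% in normoxia EVs, 6.93 to 7.28% in hypoxia cells and 5.89 to 6.56% in normoxia cells. Of 10 markers of HEK293 cells 8 were matched, and all 8 averaged at least 10 units in every group, from 49.5 (EYA1) to 5757 (NEFM) in hypoxia EVs. All 12 fibroblast markers and 9 of 10 blood markers also averaged at least 10 units in hypoxia EVs, so this level does not tell cell types apart there. Of 12 fibroblast markers, the collagen-producing cell type, none was at 0 in any group, and their summed signal was 2291 to 2625 units in hypoxia EVs, 1677 to 2027 in normoxia EVs, 1415 to 1629 in hypoxia cells and 1368 to 1553 in normoxia cells. Single markers averaged from 11.9 units (LUM) to 670.4 (COL1A1) in hypoxia EVs, 5.01 (LUM) to 741 (FBLN1) in normoxia EVs, 4.60 (DCN) to 904 (FBLN1) in hypoxia cells and 3.80 (FAP) to 837 (FBLN1) in normoxia cells. By limma 2 of 11 tested fibroblast markers were higher and 0 lower in hypoxia EVs than in normoxia EVs, beside 5.68% and 6.62% of all genes. In hypoxia EVs against hypoxia cells 8 of 12 were higher and 1 lower, beside 40.6% and 29.1%. In normoxia EVs against normoxia cells 4 of 12 were higher and 1 lower, beside 29.0% and 27.2%. Some of the markers were near-silent, such as COL1A2 (8.90 units in hypoxia cells, 6.47 in normoxia cells). Serum carries vesicles of its own, and the labels do not say that it was cleared of them. The summed signal of 10 liver and plasma protein markers was 603 to 784 units in hypoxia EVs, 119 to 408 in normoxia EVs, 40.2 to 87.1 in hypoxia cells and 47.3 to 66.7 in normoxia cells, and that of 10 blood markers was 343 to 448, 171 to 338, 50.5 to 66.6 and 56.8 to 61.9 units in the same groups, with no marker at 0. The part of these signals in the EV results was not tested. These are bulk samples of 1 cell line and its EVs, so a change in some cells or vesicles and a change in all of them cannot be told apart.

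In hypoxia cells, 7 of the 10 transcripts rose and 1 fell relative to normoxia cells. P4HA1, PLOD2 and LOX were each more than 3-fold higher, P4HA2 was about 2-fold higher, and P4HB, LOXL1 and LOXL2 rose by smaller amounts, while PLOD3 fell. Limma-trend called 8.01% of 17260 genes higher and 22.4% lower, 30.4% in all, in the same comparison (Benjamini-Hochberg adjusted p under 0.05). Hypoxia and normoxia values did not overlap for the same 7 genes on the higher side and 1 gene on the lower side, against 12.7% and 27.6% of all genes (40.3% in either direction). The median log2 fold change, on log2(value + 1), was 0.73 over the 10 genes and -0.07 over all genes tested. Only P4HA3 and PLOD1 missed the threshold.

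**Figure D1:**
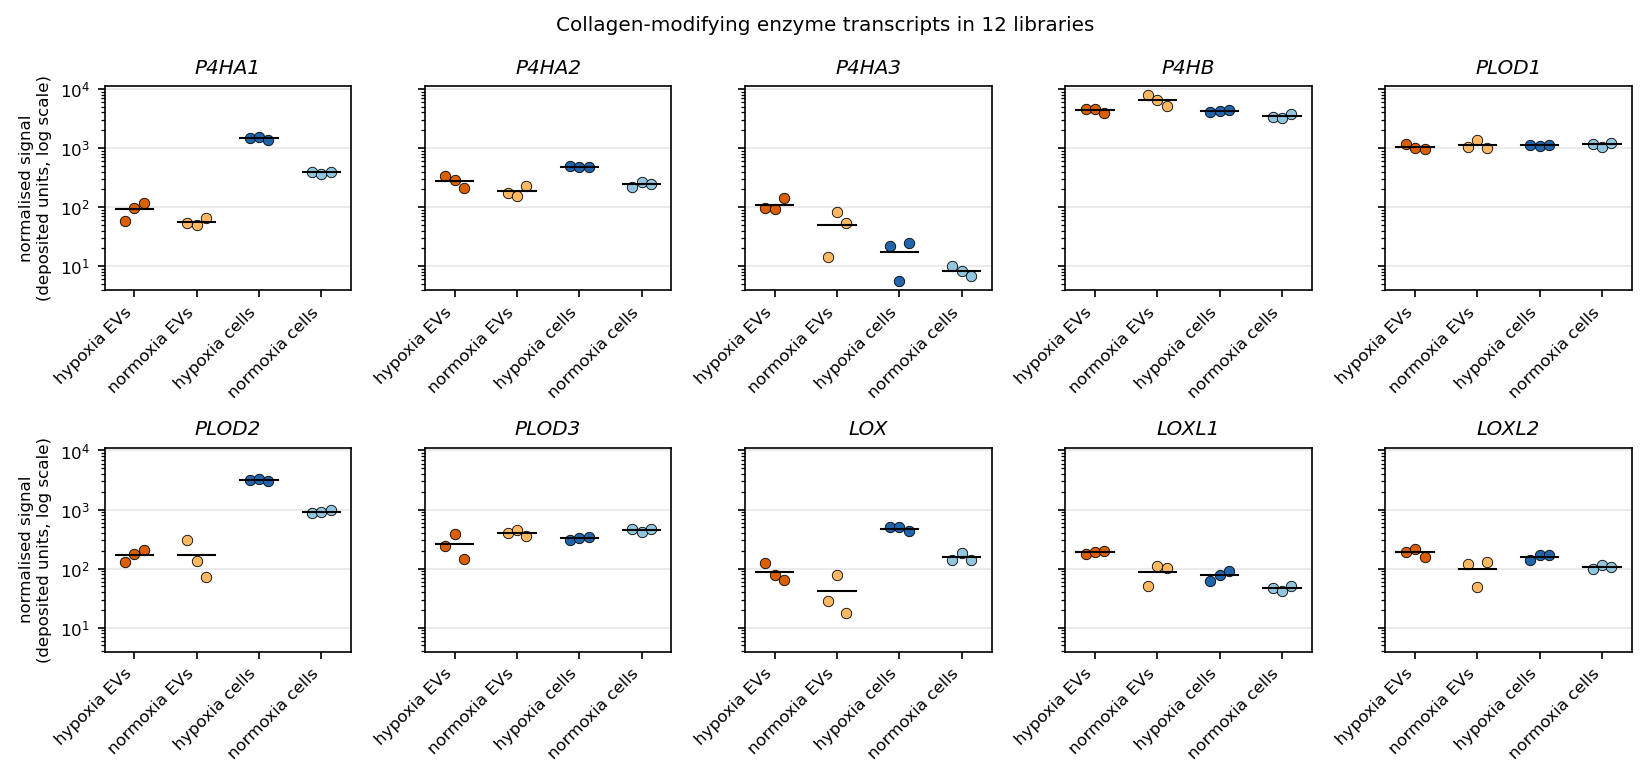
Normalised signal of the 10 transcripts (deposited units, log axis), with 1 point per library and a line at the mean of each group of 3. In hypoxia cells P4HA1, P4HA2, PLOD2 and LOX sit above normoxia cells with no overlap, while in EVs the hypoxia and normoxia points of the same genes overlap.

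Among the alpha subunits, P4HA1 led. It had 1504, 1555 and 1367 units in hypoxia cells, against 396, 369 and 399 units in normoxia cells. Every hypoxia library was above every normoxia library, and the 3.80-fold ratio of means ranked P4HA1 44th among the log2 fold changes of 17260 genes (1.92, SE 0.08, limma adjusted p = 1.89e-31). P4HA2 had 505, 471 and 473 units in hypoxia cells, against 218, 263 and 246 units in normoxia cells. Its groups were also apart, with a log2 fold change of 0.99 (SE 0.10, limma adjusted p = 3.35e-12). P4HA3 was low, at 0.826 to 3.52 times the near-silent density in hypoxia cells and 1.29 to 1.65 times in normoxia cells, with 21.6, 5.66 and 24.7 units in hypoxia cells, against 10.1, 8.27 and 6.74 units in normoxia cells. One hypoxia library lay below all normoxia libraries, and the log2 fold change of 0.76 (SE 0.53) did not pass (limma adjusted p = 0.296). P4HB, the beta subunit, had 4125, 4215 and 4403 units in hypoxia cells, against 3416, 3275 and 3813 units in normoxia cells. This was a small rise without overlap, 0.28 on the log2 scale (SE 0.06, limma adjusted p = 6.21e-05). Within a library, where the scaling cancels, the ratio of P4HA1 to P4HB signal was 0.348 ± 0.0326 in hypoxia cells and 0.111 ± 0.00575 in normoxia cells (SD, n = 3 each).

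The 3 lysyl hydroxylases moved apart. PLOD2 had 3125, 3270.0 and 3092 units in hypoxia cells, against 889, 908 and 979 units in normoxia cells. The groups were far apart, and the 3.42-fold ratio of means (log2 fold change 1.77, SE 0.06, limma adjusted p = 4.28e-34) ranked 55th of all genes. PLOD1, which hydroxylates lysines of the helix, had 1108, 1103 and 1124 units in hypoxia cells, against 1172, 1053 and 1231 units in normoxia cells. Its groups overlapped, and the 95% interval of its log2 fold change ran from -0.19 to 0.09. PLOD3, which also adds the sugars to hydroxylysine, had 301, 332 and 341 units in hypoxia cells, against 467, 417 and 465 units in normoxia cells. All 3 hypoxia libraries were lower, and PLOD3 fell by 0.47 on the log2 scale (SE 0.10, limma adjusted p = 1.07e-04). Its exons share 7.56% of their bases with ZNHIT1 on the opposite strand, and how the counting treated strand is not given here, so reads of the pair cannot be told apart. ZNHIT1 averaged 329 units in hypoxia cells and 433 units in normoxia cells, and its part in the result was not tested. The ratio of PLOD2 to PLOD1 signal was 2.85 ± 0.108 in hypoxia cells and 0.806 ± 0.0525 in normoxia cells (SD, n = 3 each). Per kb of exon too, PLOD2 stood above PLOD1 in hypoxia cells and below it in normoxia cells.

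LOX, LOXL1 and LOXL2 rose. LOXL3 and LOXL4, the other lysyl oxidases, are counted with the other collagen-modifying genes below and are named here after their values were seen. Neither passed in cells (log2 fold change -0.16 for LOXL3 and 0.54 for LOXL4, limma adjusted p = 0.518 and 0.0572). LOX, the founding member of the family, had 506, 498 and 426 units in hypoxia cells, against 139.9, 182 and 141 units in normoxia cells. The groups did not overlap, and the log2 fold change was 1.63 (SE 0.12, limma adjusted p = 1.02e-18), the 86th highest. LOXL1, needed for elastic fibres, had 60.6, 79.3 and 89.7 units in hypoxia cells, against 47.8, 41.3 and 50.5 units in normoxia cells. The lowest hypoxia library was only just above the highest normoxia library, with a log2 fold change of 0.69 (SE 0.23, limma adjusted p = 0.0174). That call was lost without hypoxia replicate 2 or 3 or normoxia replicate 2 (0.57 to 0.85 over all left-out libraries), and with the near-silent density subtracted, where the log2 fold change was 0.73 (limma adjusted p = 0.0669). LOXL1-AS1 overlaps 9.21% of the exonic bases of LOXL1 on the other strand and averaged 93.7 units in hypoxia cells and 68.5 units in normoxia cells; its part in the result was not tested. LOXL2 (ENSG00000134013, chr8:23297189-23425328, minus strand), which also oxidises type IV collagen, had 139.5, 168 and 173 units in hypoxia cells, against 97.1, 113 and 108 units in normoxia cells. Again no values overlapped, with a log2 fold change of 0.59 (SE 0.16, limma adjusted p = 0.00257). When the cells were fitted together with the more variable EVs, calls for P4HA1, P4HA2 and PLOD2 held and the other 5 were lost (LOX at a limma adjusted p of 0.0773).

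Levels between genes are compared per kb of exon, where the length counts every base in any annotated exon of the gene. A transcript can be shorter than this length, which was 3093 bases for P4HA1, 8502 for P4HA2 and 7646 for PLOD2. The order and the family shares depend on that choice. In hypoxia cells the order was P4HB (801 units per kb), P4HA1 (477), PLOD2 (414), PLOD1 (209), LOX (86.0), PLOD3 (57.3), P4HA2 (56.8), LOXL2 (28.1), LOXL1 (21.0) and P4HA3 (4.32). PLOD3 and P4HA2 overlapped, as did LOXL2 and LOXL1. In normoxia cells it was P4HB (660.3 units per kb), PLOD1 (217), P4HA1 (125), PLOD2 (121), PLOD3 (79.3), P4HA2 (28.5), LOX (27.8), LOXL2 (18.6), LOXL1 (12.8) and P4HA3 (2.08). There P4HA1 overlapped PLOD2, and P4HA2 overlapped LOX. Within each family 1 gene took a larger share of the summed signal per kb in hypoxia cells. PLOD2 made up 60.8 ± 0.925% of the lysyl hydroxylase signal in hypoxia cells and 29.1 ± 1.34% in normoxia cells (SD, n = 3 each). LOX made up 63.6 ± 5.30% of the summed signal of LOX, LOXL1 and LOXL2 in hypoxia cells and 46.8 ± 3.95% in normoxia cells. P4HA1 made up 88.6 ± 1.11% of the alpha subunit signal in hypoxia cells and 80.4 ± 1.87% in normoxia cells. Without division by length, P4HA1 signal was 3.06 ± 0.219 times that of P4HA2 in hypoxia cells and 1.61 ± 0.207 times in normoxia cells.

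**Figure D2:**
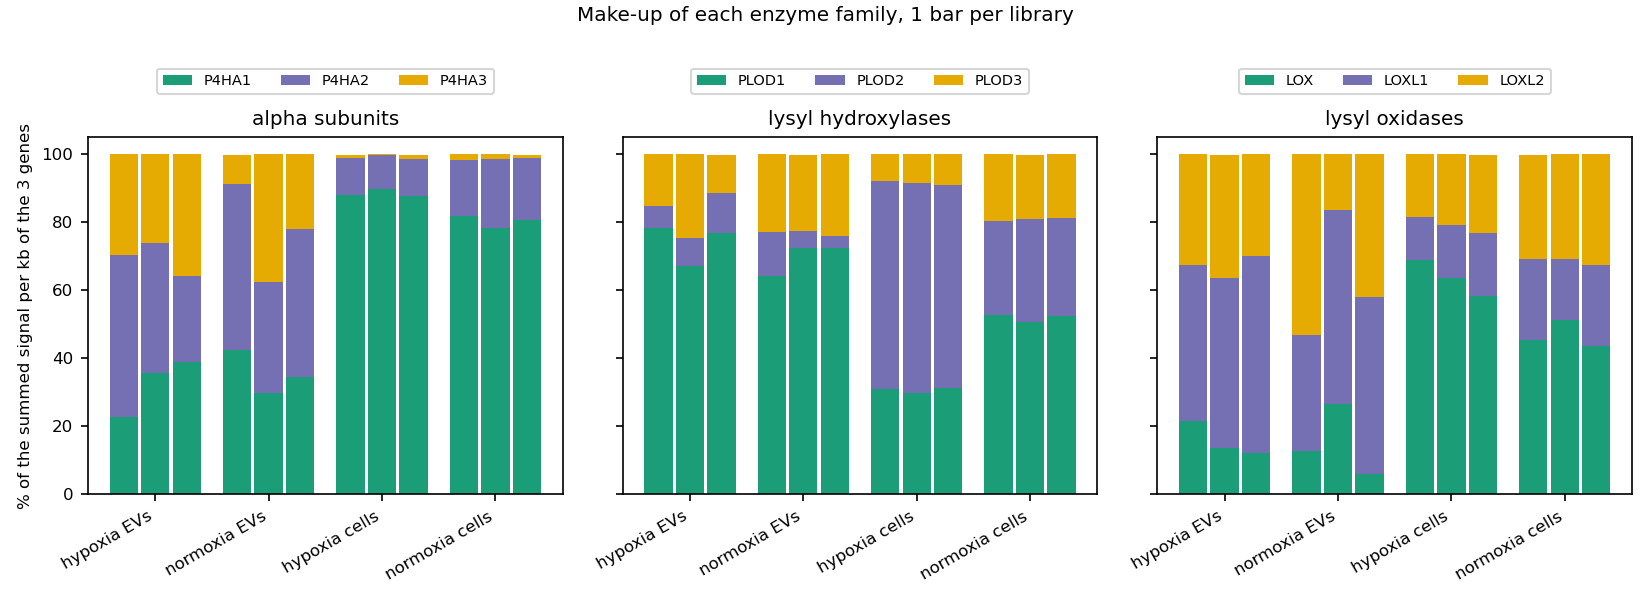
Make-up of the alpha subunits, the lysyl hydroxylases and the lysyl oxidases in each library, as the percent of the summed signal per kb of the 3 genes (y axis), with 1 bar per library and the groups along the x axis. PLOD2 takes 59.8 to 61.7% of its family in hypoxia cells and 27.8 to 30.4% in normoxia cells, and P4HA1, PLOD2 and LOX take smaller shares in EVs than in cells. The part of the near-silent signal in the EV shares was not tested.

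The counts of other genes of collagen biosynthesis called in cells stand beside 8.01% higher and 22.4% lower over all genes tested. Of 13 other collagen-modifying and folding genes, none rose in hypoxia cells and 3 fell: PPIB, a prolyl isomerase (log2 fold change -0.36, limma adjusted p = 1.12e-04), COLGALT1, which adds galactose to hydroxylysine (-0.29, 3.36e-04), and SERPINH1, the collagen chaperone HSP47 (-0.30, 6.10e-04). The median log2 fold change of the 13 was -0.09, beside -0.07 over all genes. The 13 include P4HTM, a prolyl 4-hydroxylase that acts on HIF rather than on collagen. P4HB belongs by sequence to the disulfide isomerases, and of 16 other disulfide isomerases and oxidases of the endoplasmic reticulum tested, none rose and 6 fell, led by TMX2 (-0.78, limma adjusted p = 5.46e-10). Of 40 collagen chains tested, 9 rose and 4 fell. COL7A1, the chain of anchoring fibrils, rose by 1.44 (SE 0.13, limma adjusted p = 9.83e-14) and COL6A2 by 0.62 (SE 0.09, 2.63e-07), both on the log2 scale. Of 10 tested genes of procollagen processing and secretion, 2 rose, the procollagen C-proteinase BMP1 (0.49, limma adjusted p = 0.00850) and its enhancer PCOLCE (0.56, 0.0437), and 1 fell, the N-proteinase ADAMTS3 (-0.75, 4.66e-04).

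In EVs, hypoxia against normoxia passed the threshold for none of the 10 genes, whereas 12.3% of 27904 genes did (limma-trend, 5.68% higher and 6.62% lower). At an unadjusted limma p under 0.05 there were 6, of which 4 were higher. The share over all genes at that cut was not taken, so this count is not read as a result about the 10. EdgeR on the recovered reads called 0 of the 10 and 3503 of 27904 genes. DESeq2 called 1 of the 10, P4HB, as lower, and 4542 of all genes. The median log2 fold change over the 10 genes was 0.60, the same as over all genes tested. Values did not overlap on the higher side for P4HA3, LOXL1 and LOXL2 and on the lower side for P4HB, against 23.4% and 14.5% of all genes (37.9% in either direction). The number called moved with the scaling and the libraries used. With libraries scaled to equal totals it was 4, all higher, beside 4444 of 27904 genes over all. With EVs and cells fitted together it was 7, beside 8238 of 24171 genes. Without normoxia EV replicate 3 it was 3, beside 10078 of 27979 genes.

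The genes that rose most in cells had few reads in EVs, but this was not particular to them. P4HA3 had 6 to 73 reads in EV libraries, LOXL1 21 to 131 and LOXL2 27 to 145. P4HA1 had 57.4, 97.4 and 119 units in hypoxia EVs, against 54.7, 50.4 and 64.5 units in normoxia EVs, resting on 23 to 64 reads. The lowest hypoxia library fell within the normoxia values, and the log2 fold change was 0.62 with a 95% interval of -0.41 to 1.66 (limma adjusted p = 0.362). PLOD2 had 131, 177 and 209 units in hypoxia EVs, against 302, 133 and 72.3 units in normoxia EVs. The normoxia libraries spread on both sides of the hypoxia ones, with a log2 fold change of 0.24 and a 95% interval of -0.61 to 1.09 (limma adjusted p = 0.679). LOX had 124, 79.2 and 63.1 units in hypoxia EVs, against 28.5, 77.5 and 17.6 units in normoxia EVs, on 9 to 93 reads. These groups overlapped too (log2 fold change 1.30, SE 0.62, limma adjusted p = 0.139). P4HA2 had 331, 288 and 212 units in hypoxia EVs, against 174, 153 and 225 units in normoxia EVs, overlapping at one library (0.58, SE 0.30, limma adjusted p = 0.169).

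The EV levels of P4HA1, PLOD2 and LOX were set against those of near-silent genes. Those genes were chosen as low in cells, which raises the multiples in cells, so the gap between EV and cell multiples is in part set by the rule. Per kb of exon, PLOD2 stood at 1.05 to 1.57 times the near-silent density of its own library in hypoxia EVs, against 208 to 250.2 times in hypoxia cells. P4HA1 stood at 1.14 to 2.19 times in hypoxia EVs, against 247 to 294 times in hypoxia cells. LOX was at 0.651 to 1.37 times in hypoxia EVs, against 44.0 to 52.5 times in hypoxia cells. Single near-silent genes scatter widely: in hypoxia EVs their 5th and 95th percentiles were 0 and 54.1 units per kb, and 22.5% of them had a higher level per kb than P4HA1, 33.4% than PLOD2 and 45.5% than LOX. In normoxia EVs P4HA1 stood at 1.79 to 3.69 times the density, PLOD2 at 0.810 to 8.25 times and LOX at 0.272 to 2.02 times, and 13.8%, 8.91% and 42.3% of near-silent genes had a higher level per kb. Since the near-silent density itself was higher in hypoxia EVs than in normoxia EVs, it moved with the comparison; its part in the EV values was not tested. With that density subtracted, the log2 fold change of P4HA1 between hypoxia and normoxia EVs was -0.20 (limma adjusted p = 0.972). For LOX 3 of the 6 EV values were then at 0, and no fold change is given.

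**Figure D3:**
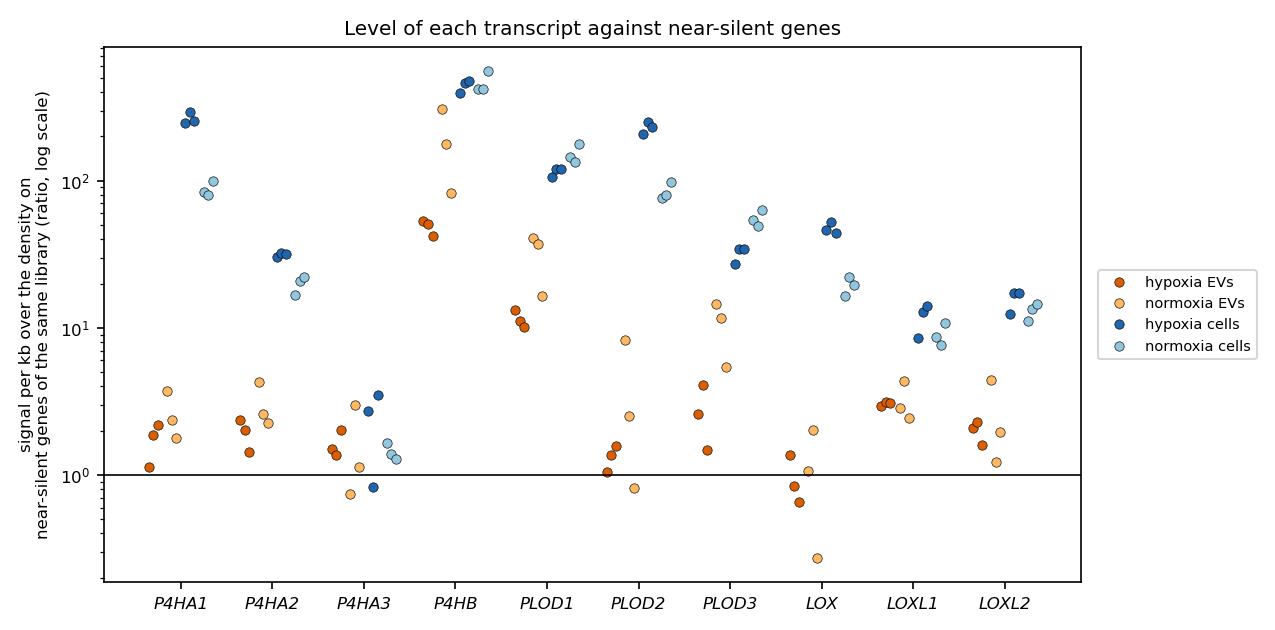
Signal per kb of exon of each gene divided by the density on near-silent genes of the same library (y axis, ratio, log scale), with 1 point per library; the line marks a ratio of 1. P4HB and PLOD1 stay at 10.2 or more in all EV libraries, while PLOD2 in hypoxia EVs is at 1.05 to 1.57 and in hypoxia cells at 208 to 250.2. Near-silent genes were chosen as low in cells, which raises the ratios in cells.

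P4HB and PLOD1 stood clear of that density in EVs. P4HB was at 42.4 to 53.6 times in hypoxia EVs and 83.0 to 308 times in normoxia EVs, and PLOD1 was at 10.2 to 13.3 and 16.4 to 40.8 times. P4HB had 4649, 4526 and 3927 units in hypoxia EVs, against 7824, 6509 and 5136 units in normoxia EVs. All hypoxia libraries were lower, but the log2 fold change of -0.55 (SE 0.23) did not pass (limma adjusted p = 0.0941). PLOD1 had 1153, 1002 and 948 units in hypoxia EVs, against 1039.5, 1378 and 1020.2 units in normoxia EVs, and the groups overlapped (95% interval of the log2 fold change -0.58 to 0.30). PLOD3 had 239, 388 and 146 units in hypoxia EVs, against 395, 456 and 359.6 units in normoxia EVs, at 1.48 to 4.06 and 5.43 to 14.5 times the near-silent density. All but 1 of the hypoxia values lay below all normoxia values, and the log2 fold change of -0.75 (SE 0.31) missed the threshold (limma adjusted p = 0.0946).

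LOXL1, LOXL2 and P4HA3 had higher values in all hypoxia EV libraries. LOXL1 had 175, 192 and 197 units in hypoxia EVs, against 49.95, 109.9 and 104 units in normoxia EVs (log2 fold change 1.17, SE 0.39, limma adjusted p = 0.0502). LOXL2 had 194, 219 and 159 units in hypoxia EVs, against 121, 48.6 and 131 units in normoxia EVs (1.03, SE 0.40, limma adjusted p = 0.0803). P4HA3 had 97.5, 92.9 and 141 units in hypoxia EVs, against 14.3, 82.9 and 52.8 units in normoxia EVs (1.42, SE 0.59, limma adjusted p = 0.0964). No values of the groups overlapped for these 3 genes, and none passed after adjustment. Relative to the near-silent density, LOXL1 stood at 2.94 to 3.12 times in hypoxia EVs and 2.44 to 4.37 times in normoxia EVs, and LOXL2 at 1.59 to 2.28 times in hypoxia EVs and 1.23 to 4.44 times in normoxia EVs. P4HA3, itself a near-silent gene by the definition used, stood at 1.37 to 2.02 times in hypoxia EVs and 0.743 to 2.99 times in normoxia EVs.

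**Figure D4:**
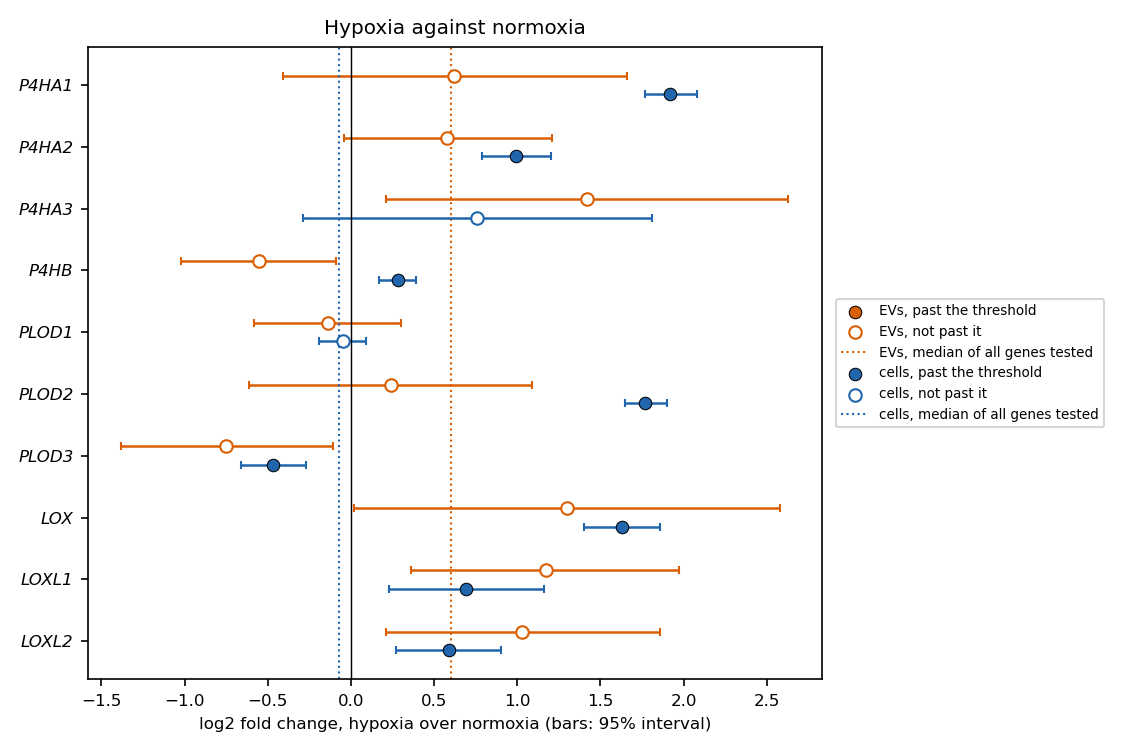
Log2 fold change of hypoxia over normoxia (x axis) for each gene in EVs (orange, upper) and in cells (blue, lower), with 95% intervals; filled points passed the limma threshold and dotted lines mark the median of all genes tested. All 8 filled points belong to cells, and the EV median lies at 0.60 against -0.07 in cells.

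The difference between the responses was tested directly, as hypoxia against normoxia in EVs minus the same in cells, in a fit of all 12 libraries. It passed for 2 of the 10 genes, both lower in EVs, against 2.31% of 24171 genes (1.87% lower and 0.443% higher). P4HA1 had a difference of -1.30 (SE 0.33, limma adjusted p = 0.0425) and P4HB of -0.84 (SE 0.22, limma adjusted p = 0.0479). This fit takes 1 spread per gene for cells and EVs together. Fitted apart, the SE of the P4HA1 response was 0.50 in EVs and 0.08 in cells, and that of P4HB 0.23 and 0.06. The SEs of these differences thus understate the error in EVs. PLOD2 had the most negative estimate, -1.53 (SE 0.45), without passing (limma adjusted p = 0.0708). Neither call was stable: over the alternatives and left-out libraries the adjusted p of P4HA1 reached 0.176 and that of P4HB 0.156, and leaving out any 1 cell library ended both calls.

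EVs against cells of the same condition gave the widest differences. In hypoxia, 4 of the 10 genes were lower in EVs and 2 higher, against 29.1% and 40.6% of 24171 genes, 69.7% in all (limma-trend). Values did not overlap for the same numbers of genes, against 32.1% and 46.0%, or 78.1% in either direction. In normoxia, 3 were lower and 3 higher, against 27.2% and 29.0%, 56.3% in all. Values did not overlap for 3 lower and 2 higher genes, against 28.8% and 29.2%, or 58.0% in either direction. These comparisons use the same libraries as those of hypoxia with normoxia and are not independent of them.

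P4HA1, PLOD2 and LOX were lower in EVs in both conditions. P4HA1 averaged 91.1 ± 31.0 units in hypoxia EVs and 1476 ± 97.3 units in hypoxia cells (SD, n = 3 each), a log2 fold change of -4.06 (SE 0.23, limma adjusted p = 7.32e-11). It ranked 48th from the lowest of 24171 genes. PLOD2 averaged 172 ± 39.4 units in hypoxia EVs and 3162 ± 94.8 units in hypoxia cells, a log2 fold change of -4.22 (SE 0.32, limma adjusted p = 1.65e-09), and ranked 36th from the lowest. LOX averaged 88.8 ± 31.7 units in hypoxia EVs and 477 ± 43.9 units in hypoxia cells (-2.46, SE 0.38, limma adjusted p = 1.73e-05). In normoxia the log2 fold changes of EVs over cells were smaller in size for the 3 genes, at -2.76 for P4HA1 (limma adjusted p = 1.22e-08), -2.68 for PLOD2 (8.11e-07) and -2.14 for LOX (1.10e-04). All 6 of these calls held under every alternative and without any 1 library. P4HA2 passed in hypoxia, at 277 ± 60.4 units in EVs and 483 ± 19.3 units in cells (-0.82, SE 0.21, limma adjusted p = 0.00160), and not in normoxia (-0.41, limma adjusted p = 0.0926). The call in hypoxia was lost with equal totals without the plasmid genes (-0.31, limma adjusted p = 0.213). In normoxia P4HA2 passed, as lower, with TMM (-0.71), equal totals (-0.59), density subtracted (-0.98), edgeR (-0.53) and without normoxia EV replicate 3 (-0.57).

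**Figure D5:**
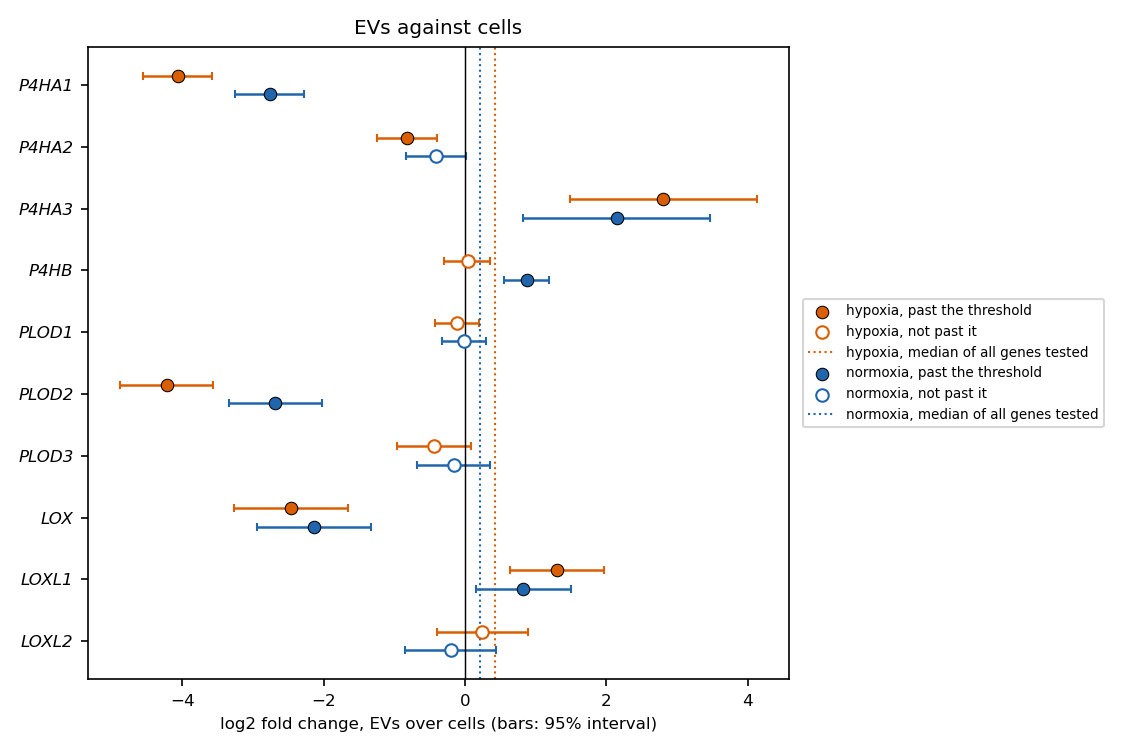
Log2 fold change of EVs over cells (x axis) for each gene in hypoxia (orange, upper) and normoxia (blue, lower), with 95% intervals; filled points passed the limma threshold and dotted lines mark the medians of all genes tested, 0.43 in hypoxia and 0.21 in normoxia. P4HA1, PLOD2 and LOX lie left of -2 in both conditions, and PLOD1 and PLOD3 have intervals that include 0 in both.

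P4HB went the other way in normoxia. It averaged 6489.8 ± 1344 units in normoxia EVs and 3501 ± 279 units in normoxia cells (log2 fold change 0.87, SE 0.15, limma adjusted p = 9.09e-05), and this call held in every alternative. In hypoxia it averaged 4367 ± 386 units in EVs and 4248 ± 142 units in cells (0.04, 95% interval -0.29 to 0.36), and the sign of a call depended on the scaling: it passed as lower with TMM factors (-0.45) and as higher with equal totals (0.30) and with equal totals without the plasmid genes (0.55). PLOD1 did not pass in hypoxia (-0.11, 95% interval -0.42 to 0.20) or normoxia (-0.02, 95% interval -0.33 to 0.29), but in hypoxia it passed as lower with TMM (-0.60) and as higher with equal totals without the plasmid genes (0.40). P4HA3 and LOXL1 were higher in EVs in both conditions, with log2 fold changes of 2.80 and 1.30 in hypoxia and 2.15 and 0.82 in normoxia (limma adjusted p = 7.14e-04, 0.00154, 0.00723 and 0.0356). All 4 of these calls were lost when the near-silent density was subtracted, with log2 fold changes in hypoxia of 2.61 for P4HA3 and 0.87 for LOXL1 (limma adjusted p = 0.156 and 0.0509) and in normoxia of 1.08 and 0.42 (0.601 and 0.362). LOXL1 in normoxia also had overlapping groups and lost its call without normoxia EV replicate 2 or 3 or any 1 normoxia cell library, with no filter, with TMM, with equal totals and in the fit of the normoxia libraries alone. PLOD3 and LOXL2 passed in neither condition. In hypoxia PLOD3 did pass, as lower, with TMM (-0.93), density subtracted (-1.30), edgeR (-0.52) and without hypoxia EV replicate 2 (-0.79), and LOXL2, as higher, with equal totals without the plasmid genes (0.76).

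The same ratios within libraries cancel the scaling, but would not cancel a signal added to every gene. In hypoxia EVs P4HA1, P4HA2 and PLOD2 stood at only 1.14 to 2.19, 1.43 to 2.38 and 1.05 to 1.57 times the near-silent density. The part of the near-silent signal in the EV ratios and family shares was not tested. PLOD2 signal was 0.170 ± 0.0539 times that of PLOD1 in hypoxia EVs, 0.153 ± 0.120 times in normoxia EVs, 2.85 ± 0.108 times in hypoxia cells and 0.806 ± 0.0525 times in normoxia cells (SD, n = 3 each). P4HA1 signal was 0.357 ± 0.194 times that of P4HA2 in hypoxia EVs, 0.310 ± 0.0216 times in normoxia EVs, 3.06 ± 0.219 times in hypoxia cells and 1.61 ± 0.207 times in normoxia cells. For both pairs the EV conditions overlapped and every EV library lay below every cell library. Per kb, P4HB (824 units per kb) and PLOD1 (194) led in hypoxia EVs, and all neighbours from LOXL1 (51.6) down to LOX (16.0) overlapped. In normoxia EVs P4HB (1224 units per kb), PLOD1 (215) and PLOD3 (71.1) led, and all neighbours from LOXL1 (24.1) down to LOX (7.43) overlapped.

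The counts of other collagen genes that differed between hypoxia EVs and hypoxia cells stand beside 40.6% higher and 29.1% lower over all genes. Of 17 other disulfide isomerases and oxidases, 12 were lower and none higher in hypoxia EVs than in hypoxia cells, with a median log2 fold change of -1.49 against 0.43 over all genes, led by PDIA3 (-2.77, limma adjusted p = 3.93e-11). P4HB was not among the lower ones. Of 13 other collagen-modifying and folding genes, 6 were lower, such as CRTAP, a partner of the prolyl 3-hydroxylase (-1.43, limma adjusted p = 1.87e-07). Another 3 were higher, among them P4HTM (4.14, limma adjusted p = 2.28e-06), which does not act on collagen. P4HTM averaged 10.3 units in hypoxia cells and 12.3 in normoxia cells and was near-silent by the definition used. Of 42 collagen chains, 25 were higher and 6 lower in hypoxia EVs. In normoxia 20 were higher and 4 lower, beside 29.0% and 27.2% of all genes, among them COL7A1 (2.92, limma adjusted p = 1.98e-10) on the higher side and COL4A2, a basement membrane chain (-2.09, limma adjusted p = 3.56e-08), on the lower. Some of the higher chains were near-silent by the definition used, such as COL22A1 (15.8 units in hypoxia cells, 15.2 in normoxia cells). Of 11 genes of procollagen processing and secretion, 3 were higher and 3 lower in hypoxia EVs. The part of the near-silent signal in the counts of these lists was not tested. Between hypoxia and normoxia EVs, 1 of 13 collagen-modifying and folding genes was higher and 1 lower, 2 of 11 processing genes were higher and 1 lower, 6 of 42 chains were higher and 3 lower, and 0 of 17 isomerases and oxidases were higher and 1 lower, beside 5.68% higher and 6.62% lower over all genes. The higher one of the 13 was again P4HTM (1.35, limma adjusted p = 0.0449).

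Over the 12 libraries, the genes whose log2(value + 1) followed P4HA1 most closely were HK2 (Pearson r = 0.981), NRN1 (0.980) and TBC1D16 (0.976). For PLOD2 they were FAM162A (0.984), ZNF292 (0.979) and LDHA (0.977), and for P4HA2 they were MELTF (0.929), LTBP4 (0.925) and ENO2 (0.909). The search covered 10601 genes averaging 100 units or more, and all points share the difference between EVs and cells, so these values only describe the pattern. LDHA, the lactate dehydrogenase subunit of glycolysis, averaged 1027 units in hypoxia EVs, 1119.9 in normoxia EVs, 14679 in hypoxia cells and 7658 in normoxia cells, which is the same order of cells over EVs as PLOD2.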

How the data were processed

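RNA of HEK293 cells and their EVs was sequenced with a stranded total RNA kit, per the labels' protocols, and groups were taken from the sample titles. The deposited signal per gene is a read count that the authors divided by 1 factor per library, read from the values: all libraries gave whole reads within 0.01 for 100.0% of values. Bowtie 0.12.2, DESeq2 1.30.1 and hg38 are named in the submitters' processing notes. Counter, annotation and strand setting are not given in the sources used. Of 57773 IDs, 52338 matched GENCODE 29, which gave positions and exon lengths on GRCh38. The exon length of a gene is the number of bases in any of its annotated exons. Promoters came from RefSeq.

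Limma-trend (limma 3.58.1, R 4.3.3) was fitted to log2(value + 1) of genes averaging 10 units or more over the libraries fitted, with Benjamini-Hochberg adjustment over all of them and a threshold of 0.05. This scale understates changes of low genes. Hypoxia was tested in 6 libraries of a kind, EVs against cells and the difference of responses in all 12. The fit of all 12 takes 1 spread per gene for cells and EVs, although EVs were more variable. A count of 0 allows 3 reads, on average 5.38 units in hypoxia EVs, 6.13 in normoxia EVs, 1.58 in hypoxia cells and 1.54 in normoxia cells, counting error only. The 12 same-group pairs each differed (chi-square of counts 5.05 to 13.4 times its degrees of freedom) and were kept as separate samples. Alternatives were a pseudocount of 0.5 or 5, no filter or one at 50, TMM, equal totals with and without the plasmid genes, near-silent density subtracted, edgeR 4.0.16, DESeq2 1.42.0, a replicate block, other library sets and each library left out, and scripts were tested on simulated data. The text names all 10 genes, up to 4 with the smallest p per other list, and 3 by likeness. The genes and lists were chosen with earlier results of these data known.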

Additional observations from a re-analysis of the deposited data

Results flagged for a closer look

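Results for 2 genes were picked out because the responses to hypoxia differed between EVs and cells by the interaction test. The log2 response of P4HA1 in EVs minus that in cells was -1.30 (SE 0.33, limma adjusted p = 0.0425), from 0.62 (SE 0.50) in EVs and 1.92 (SE 0.08) in cells. That of P4HB was -0.84 (SE 0.22, limma adjusted p = 0.0479), from -0.55 (SE 0.23) in EVs and 0.28 (SE 0.06) in cells. P4HB is the gene of the set with the highest level per kb in all 4 groups. Cells and EVs share 1 spread per gene in this test, so its SEs understate the error in EVs. The near-silent density was higher in hypoxia EVs (16.3 to 17.5 units per kb) than in normoxia EVs (4.79 to 11.7), and its part in the results was not tested. With it subtracted the difference for P4HA1 was larger in size, -2.13, and did not pass (limma adjusted p = 0.176). With equal totals the differences were smaller in size and did not pass. They were -0.87 for P4HA1 (limma adjusted p = 0.142) and -0.39 for P4HB (limma adjusted p = 0.0714).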

How the results depend on the processing

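Of 946 values of single genes recomputed under the alternatives, 849 stayed on the same side of the threshold (36 of them, none past it, with the opposite sign), 52 fell short of it, 43 newly passed it and 2 changed sign with a call: in hypoxia, EVs over cells became -0.45 for P4HB with TMM and 0.40 for PLOD1 with equal totals without the plasmid genes. In cells the fit of all 12 libraries called 3 of the 10 genes and 84 of all genes, against 8 and 5254. Of the 5254, 1383 were higher and 3871 lower, which became 2304 and 2043 with equal totals, 2484 and 1887 without the plasmid genes, 1891 and 2606 with edgeR and 1926 and 2515 with DESeq2, and 1671 and 3029 with TMM. In EVs, hypoxia against normoxia called 0 of the 10 genes; this became 1 with a pseudocount of 5 or with DESeq2, 2 with a filter mean of 50, 4 with equal totals with or without the plasmid genes, and 7 with all 12 libraries, and 0 to 3 with a library left out. Over all genes there were 3432 calls (1586 higher, 1846 lower). This became 5311 with a pseudocount of 5, 0 with density subtracted and 8238 with all 12 libraries. With a library left out it was 7 to 10078, the extremes being without normoxia EV replicates 2 and 3. A filter mean of 50 gave 3842 of 15260 genes and DESeq2 gave 4542. Equal totals gave 4444 with the plasmid genes and 4066 without them. With equal totals 4255 were higher and 189 lower, the median of all genes moving to 1.13, with TMM 1224 and 2341. For EVs against cells in hypoxia, 16857 calls (9823 higher, 7034 lower) became 9764 with a filter mean of 50, and TMM gave 8027 higher and 9126 lower; in normoxia TMM gave 5685 and 8021. The difference of responses called 2 of the 10 genes, 1 with a pseudocount of 0.5, without the plasmid genes or with density subtracted, 0 with no filter or with equal totals, 3 with TMM, edgeR, DESeq2 or a pseudocount of 5, and 0 to 3 with a library left out. Over all genes 559 became 873 with a filter mean of 50, 105 with none, 1768 with TMM and 1963 with density subtracted. EdgeR gave 1664, DESeq2 gave 2179, and a library left out gave 38 to 5438. A pseudocount of 0.5 gave 511 and one of 5 gave 798. Equal totals gave 626 with the plasmid genes and 537 without them. With the replicate number as a block, the difference of responses passed for 0 of the 10 genes and 326 of all, and hypoxia against normoxia in EVs for 3 of the 10 (1 higher, 2 lower) and 5409 of all. Libraries with the same number did not deviate together (r from -0.14 to 0.09). This cannot decide whether they came from the same culture, since noise between libraries can hide a shared deviation. The labels do not state a pairing, and the main fits used none. The cause of these shifts was not tested. Depth limits the EV values, where P4HA1, LOX and P4HA3 rested on as few as 23, 9 and 6 reads.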
